A study of Mus musculus with 12 samples.

Results

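AP-2 transcription factors are encoded in the mouse by 5 paralogous genes, Tfap2a, Tfap2b, Tfap2c, Tfap2d and Tfap2e. The data were a merged list of accessible chromatin regions from mouse embryonic stem (ES) cells, and the members were the rows of that list that overlap a body of these genes or its flanks of 50 kb to either side, on GRCm38 (mm10) with GENCODE M21 gene models. The windows of the 5 genes held 70 separate regions of 170548 in the list. Because Tfap2b and Tfap2d are neighbours and shared 6 regions, the counts over genes add to 76. The 5 genes stand among 21938 protein-coding genes of chromosomes 1 to 19, X and Y, for which regions were counted in the same way.

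Accessibility was measured by ATAC-seq, in which the Tn5 transposase cuts open DNA and inserts sequencing adapters, in 12 libraries of 2 ES cell lines. In ZHBTc4 cells a Tet-Off promoter drives Pou5f1 (which encodes OCT4) and in 2TS22C cells Sox2, so that doxycycline (dox) at 1 ug/ml shuts the transgene off. The 4 libraries of ZHBTc4 cells were OCT4 ON (untreated) and OCT4 OFF (dox) at 24 hr, and the 8 libraries of 2TS22C cells were SOX2 ON and SOX2 OFF at 26 hr and at 40 hr, with 2 replicates in each of the 6 groups. All cells grew on gelatin in serum with LIF and the inhibitors CHIR99021 and PD184352, and each factor was depleted in 1 line, so that line and factor cannot be told apart. The list pools the peaks of all conditions and holds 3 values per region, a chromosome, a start and an end. It gives no height, no read number and no value per library, so dox-treated and untreated cells could not be compared at any AP-2 gene, the depth is unknown, and a region in the list was called in at least 1 library or condition that the list does not name.

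AP-2 proteins bind DNA as dimers at GC-rich palindromes through a helix-span-helix domain and can activate or repress transcription. TFAP2C acts in trophoblast and in primordial germ cells, TFAP2A in neural crest and surface ectoderm, and TFAP2B in neural crest and kidney, while TFAP2D and TFAP2E are best known from the nervous system, TFAP2D in the developing midbrain and TFAP2E in olfactory neurons. The genes are therefore linked to lineages other than the undifferentiated ES cell. What was asked here is how many accessible regions of the pooled list lie around each paralog, how wide they are and where they sit. Since the list includes cells depleted of OCT4 or SOX2, a region in it need not be accessible in untreated ES cells.

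The consensus palindrome of the family, GCCNNNGGC (its own reverse complement, so both strands are searched at once), was found in the central 200 bp of 11 of the 70 regions. The sequences shown are 100 bases of the plus strand of GRCm38 around the match in 10 of these 11 regions, named by the gene and by the distance of the region's center from the gene's start in the direction of transcription, with the palindrome in capitals. The 11th, at the divergent promoter of Ncdn and AU040320 in the Tfap2e window, lies in untranslated exon sequence and is not printed.
Tfap2a +64.1 kb: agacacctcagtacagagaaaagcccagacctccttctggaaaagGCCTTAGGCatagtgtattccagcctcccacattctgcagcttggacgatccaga
Tfap2a +28.6 kb: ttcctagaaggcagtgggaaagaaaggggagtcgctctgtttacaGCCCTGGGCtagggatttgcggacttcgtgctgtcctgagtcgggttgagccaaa
Tfap2a +6.79 kb: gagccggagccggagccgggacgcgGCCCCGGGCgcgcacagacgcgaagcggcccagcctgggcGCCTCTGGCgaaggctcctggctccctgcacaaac
Tfap2a +4.38 kb: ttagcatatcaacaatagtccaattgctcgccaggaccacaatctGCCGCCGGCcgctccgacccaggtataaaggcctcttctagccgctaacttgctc
Tfap2b +5.25 kb: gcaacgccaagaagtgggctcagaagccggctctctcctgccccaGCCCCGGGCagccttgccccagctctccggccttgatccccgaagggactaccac
Tfap2b +32.5 kb: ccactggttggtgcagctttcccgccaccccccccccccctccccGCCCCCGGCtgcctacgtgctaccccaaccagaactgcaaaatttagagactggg
Tfap2c -3.78 kb: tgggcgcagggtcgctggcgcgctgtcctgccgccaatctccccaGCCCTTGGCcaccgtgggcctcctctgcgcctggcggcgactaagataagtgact
Tfap2c +9.55 kb: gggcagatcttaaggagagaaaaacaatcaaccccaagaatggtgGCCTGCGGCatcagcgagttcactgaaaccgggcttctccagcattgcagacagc
Tfap2c +11.8 kb: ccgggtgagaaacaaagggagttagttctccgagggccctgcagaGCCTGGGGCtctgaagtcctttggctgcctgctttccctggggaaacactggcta
Tfap2e +0.817 kb: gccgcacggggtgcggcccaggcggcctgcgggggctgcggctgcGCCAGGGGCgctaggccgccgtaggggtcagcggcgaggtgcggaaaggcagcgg
The Tfap2a sequences are chr13:40674223-40674322, chr13:40709815-40709914, chr13:40731557-40731656 and chr13:40734035-40734134. Those of Tfap2b are chr1:19214196-19214295 and chr1:19241322-19241421. Those of Tfap2c are chr2:172545855-172545954, chr2:172559058-172559157 and chr2:172561294-172561393, and that of Tfap2e is chr4:126735363-126735462. The +6.79 kb region of Tfap2a held 2 palindromes in its center, and the others shown held 1 each. The +5.25 kb sequence of Tfap2b lies in coding exon 2, the +0.817 kb sequence of Tfap2e lies in the region over its first 3 exons, and the match at +11.8 kb of Tfap2c stands at the very edge of its region, with 55 of the 100 bases inside it.

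A second set of sequences shows where regions begin relative to promoters. RefSeq (GRCm38.p6) gives 7 promoters for 4 of the 5 genes; Tfap2c has no entry. Printed are the 250 bases before the transcription start site (TSS), 5′ to 3′ on the gene's strand, for Tfap2e (chr4:126736270-126736519, minus strand) and for the promoter inside the Tfap2d gene (chr1:19103883-19104132, plus strand), with the bases inside an accessible region in capitals.
Tfap2e promoter: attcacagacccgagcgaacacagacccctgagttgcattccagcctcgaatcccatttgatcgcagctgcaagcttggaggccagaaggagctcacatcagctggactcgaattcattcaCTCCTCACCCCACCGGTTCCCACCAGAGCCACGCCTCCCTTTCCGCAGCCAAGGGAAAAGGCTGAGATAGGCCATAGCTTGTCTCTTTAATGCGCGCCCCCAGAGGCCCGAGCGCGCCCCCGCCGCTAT
Tfap2d inner promoter: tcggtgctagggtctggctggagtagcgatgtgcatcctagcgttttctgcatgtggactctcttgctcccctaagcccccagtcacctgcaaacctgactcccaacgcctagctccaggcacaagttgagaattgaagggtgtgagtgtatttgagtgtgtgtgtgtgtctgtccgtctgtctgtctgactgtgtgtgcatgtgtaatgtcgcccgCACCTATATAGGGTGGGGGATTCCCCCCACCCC
The Tfap2e promoter was inside a region over the 129 bases next to its start, and the inner Tfap2d promoter over the last 33. Over the full 300 bases of each promoter, 250 before and 50 after the start, 1 of 2 Tfap2a promoters (chr13:40733746-40734045) was inside a region over all 300 bases and the other (chr13:40734871-40735170) over 0. The Tfap2b promoter in the table (chr1:19211804-19212103) and the 2 promoters at the start of Tfap2d also had 0 bases inside a region. None of the 7 promoters held GCCNNNGGC, which 5450 of the 32851 RefSeq promoters of that length (16.6%) held. The 2 at the start of Tfap2d overlap over most of their length, and 7 promoters are too few to tell 0 from that share.

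With flanks of 50 kb, Tfap2c had the most regions and Tfap2e the fewest, an order that other windows changed at both ends, as given further on. The windows held 23 regions at Tfap2c (95% Poisson interval 14.6 to 34.5), 21 at Tfap2a (13.0 to 32.1), 13 at Tfap2b (6.92 to 22.2), 11 at Tfap2d (5.49 to 19.7) and 8 at Tfap2e (3.45 to 15.8). The median protein-coding gene had 14, with quartiles of 8 and 20. Thus 83.0% of protein-coding genes had fewer regions than Tfap2c, 76.7% fewer than Tfap2a, 43.5% fewer than Tfap2b, 35.2% fewer than Tfap2d and 23.8% fewer than Tfap2e. The intervals cover counting error only, as regions are neither replicates nor independent of one another.

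Gene length sets the length of a window, so the number per 100 kb was also compared. The density was 21.1 regions per 100 kb at Tfap2c (interval 13.4 to 31.7), 17.1 at Tfap2a (10.6 to 26.1), 10.0 at Tfap2b (5.34 to 17.1), 6.74 at Tfap2d (3.36 to 12.1) and 6.65 at Tfap2e (2.87 to 13.1), against a median of 10.2 and quartiles of 5.70 and 15.1 over all protein-coding genes. Tfap2c was denser than 94.9% of the genes and Tfap2a than 83.6%, both above the upper quartile, while Tfap2b (49.0%), Tfap2d (30.4%) and Tfap2e (29.9%) lay between the quartiles. Neighbours in this order had overlapping intervals in each case. The interval of Tfap2c did not overlap those of Tfap2d and Tfap2e, and every other pair overlapped. Regions covered 11.0% of the Tfap2c window, 9.15% of the Tfap2a window, 4.77% of the Tfap2e window, 4.57% of the Tfap2b window and 3.11% of the Tfap2d window.

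**Figure D1:**
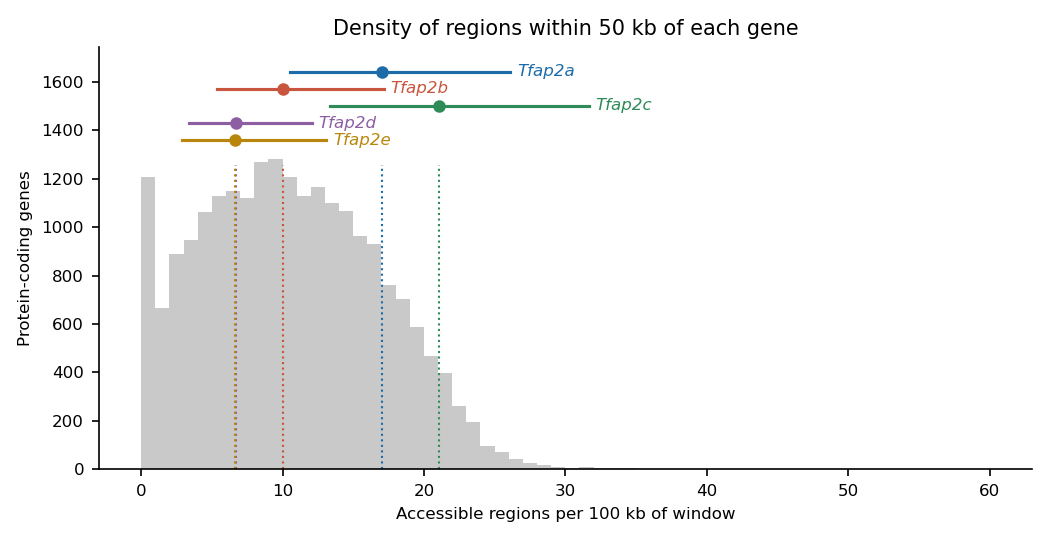
Histogram of accessible regions per 100 kb of window (x axis) over the 21938 protein-coding genes (y axis, number of genes), with the 5 AP-2 genes as points above it and lines for their 95% Poisson intervals. Tfap2c (21.1) and Tfap2a (17.1) stand on the right slope, Tfap2b (10.0) near the middle, and Tfap2d (6.74) and Tfap2e (6.65) on the left.

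The base composition of the windows moved with the density in part. GC content was 49.5% in the Tfap2c window, 45.2% at Tfap2a, 45.3% at Tfap2e, 40.5% at Tfap2b and 39.8% at Tfap2d, so the densest window was also the richest in GC, whereas Tfap2a and Tfap2e had like GC content and differed in density. Repeat-masked sequence made up 30.1% of the Tfap2c window, 27.6% at Tfap2a, 30.7% at Tfap2e, 36.1% at Tfap2b and 38.3% at Tfap2d. The part of GC content and repeats in the order of the genes was not tested.

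Tfap2c (ENSMUSG00000028640.11) occupies bases 172549593 to 172558622 of chromosome 2 on the plus strand, a gene of 9.03 kb with 6 annotated transcripts, and the only other annotated gene in its window is the pseudogene Gm14303. Of its 23 regions, 12 lay upstream of the gene, 1 in its body and 10 downstream by their centers. The gene start was covered by a 396 bp region (172549357-172549752) with 71.0% GC, the highest of all 70 regions. A second region of 1056 bp (172550374-172551429, 64.0% GC) overlapped exon 2 of 7 and covered 4 more annotated transcript starts, so that 5 of 6 starts were covered.

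Beyond the promoter, Tfap2c had the most distal regions of the family. A region is called distal when no annotated TSS lies within 1 kb of its center, and 20 of the 23 were distal. The widest was 1389 bp (172567667-172569055), intergenic and centered 18.8 kb downstream of the gene start, and the next widest distal region was 1199 bp (172585020-172586218) at 36.0 kb. For 17 of the 23 regions a Tfap2c TSS was the nearest TSS, and the next protein-coding gene, Fam209, starts 77.1 kb upstream. No stretch longer than 8.54 kb of the Tfap2c window was free of regions, the shortest such value among the 5 genes. The region farthest from the start, at 58.3 kb, measured 597 bp (172607637-172608233).

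Tfap2a (ENSMUSG00000021359.16) occupies bases 40715302 to 40738376 of chromosome 13 on the minus strand, spans 23.1 kb and has 9 annotated transcripts. Its regions were spread over the window, with 8 upstream, 6 in the body and 7 downstream. The gene start was covered by a narrow region of 172 bp (40738331-40738502), which also lies in the antisense gene Gm47067. Wider regions lay inside the gene: one of 637 bp (40733676-40734312) covered 3 further transcript starts, and one of 795 bp (40731191-40731985, 67.5% GC) covered the start of the non-coding transcript Tfap2a-205 and held 3 palindromes over its whole width, 2 of them in the center shown above. In all, 5 of 9 Tfap2a transcript starts were covered.

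Regions also lay over later exons of Tfap2a. One of 598 bp (40728146-40728743, 62.5% GC) overlapped exon 2 with 402 coding bases, one of 954 bp (40722596-40723549) overlapped exon 4 and covered the start of the antisense gene Gm47061, and one of 999 bp (40716836-40717834) overlapped the last exon, with 286 coding and 282 untranslated bases. Together, regions covered 18.8% of the bases of the Tfap2a gene body. The widest region of the window, 1273 bp (40748994-40750266), was intergenic and centered 11.3 kb upstream. Of the 21 regions, 14 were distal. The narrowest of the 70 regions, 132 bp with 27.3% GC (40758032-40758163), was also in this window, and the farthest, 294 bp at 64.1 kb (40674089-40674382), carried a palindrome. A 617 bp region (40703970-40704586) covered the start of the lincRNA Gm9979.

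Tfap2b and Tfap2d lie in tandem on the plus strand of chromosome 1, with 42.6 kb between the end of Tfap2d and the start of Tfap2b, and their windows overlap by 57.4 kb. At both genes the first base of the gene was outside any region, and the nearest region began inside the gene. Tfap2b (ENSMUSG00000025927.13, 19208914-19238576, 29.7 kb, 5 transcripts) had 13 regions, 3 upstream, 7 in the body and 3 downstream. The region nearest to its start, which was also its widest, began 205 bp into the gene and ran for 1609 bp (19209119-19210727) over part of exon 1 and the first intron. That region was wider than 98.5% of the list. It was followed after a gap of 1 bp by a region of 274 bp (19210729-19211002), and joined they measured 1884 bp.

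No annotated start of the 5 Tfap2b transcripts was covered, although 3 starts lay within 205 bp of a region. Coding exon 2 held a 321 bp region (19214007-19214327, 66.0% GC) that was coding over its full width. The last exon, number 7, held 3 regions: one of 608 bp (19233823-19234430) with 295 coding bases, and 2 of 727 bp (19234825-19235551) and 449 bp (19236607-19237055) with 727 and 449 bases annotated as untranslated. Of those 449 bases, 20 are also annotated as coding. Regions covered 14.4% of the Tfap2b body. The farthest region, 260 bp (19262896-19263155), was centered 54.1 kb from the start.

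Tfap2d (ENSMUSG00000042596.7, 19103022-19166346) is the longest of the 5 genes at 63.3 kb, with 2 transcripts, and it had the least covered body, 2.08% of its bases. Of its 11 regions, 2 lay upstream, 3 in the body and 6 downstream, and all 6 downstream regions were those shared with Tfap2b, 3 of them inside the Tfap2b gene. The region nearest to its start, 794 bp (19104100-19104893, 59.4% GC), began 1078 bp into the gene over exon 2 of 8, held 498 coding bases and covered the start of the antisense gene Gm15825. Neither of the 2 starts of Tfap2d in GENCODE was covered. The same region did cover the start of the inner RefSeq promoter printed above, with 83 of the 300 bases of that promoter inside it. The other regions inside the gene were 375 bp (19109781-19110155) and 146 bp (19119528-19119673), and from there 59.3 kb passed without a region, from 16.7 to 75.9 kb after the gene start, the longest such stretch in the 5 windows. Without the 6 shared regions, Tfap2d kept 5, the number also found within 50 kb to either side of its start.

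Tfap2e (ENSMUSG00000042477.7) occupies bases 126716006 to 126736240 of chromosome 4 on the minus strand, spans 20.2 kb and has 1 annotated transcript. It had 8 regions, the fewest with flanks of 50 kb, and the widest single one of the 70. A region of 1951 bp (126734448-126736398, 66.2% GC) covered the gene start and overlapped exons 1, 2 and 3 of 7, with 562 coding bases. It was wider than 99.5% of the list and held 5 palindromes over its width, 1 of them in the center. The rest of the gene body had 0 regions, and the nearest region on the far side was 196 bp (126713209-126713404), centered 22.9 kb from the start.

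The other wide regions of the Tfap2e window belonged to the starts of other protein-coding genes. One of 1290 bp (126752959-126754248) covered the starts of Ncdn and AU040320, and one of 1074 bp (126677183-126678256), the farthest at 58.5 kb, covered the start of Psmb2. The remaining 5 regions measured 196 to 366 bp and were all distal. The nearest upstream one, 351 bp (126740042-126740392), was centered at -3.98 kb, before the start. The longest stretch without a region was 35.0 kb.

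**Figure D2:**
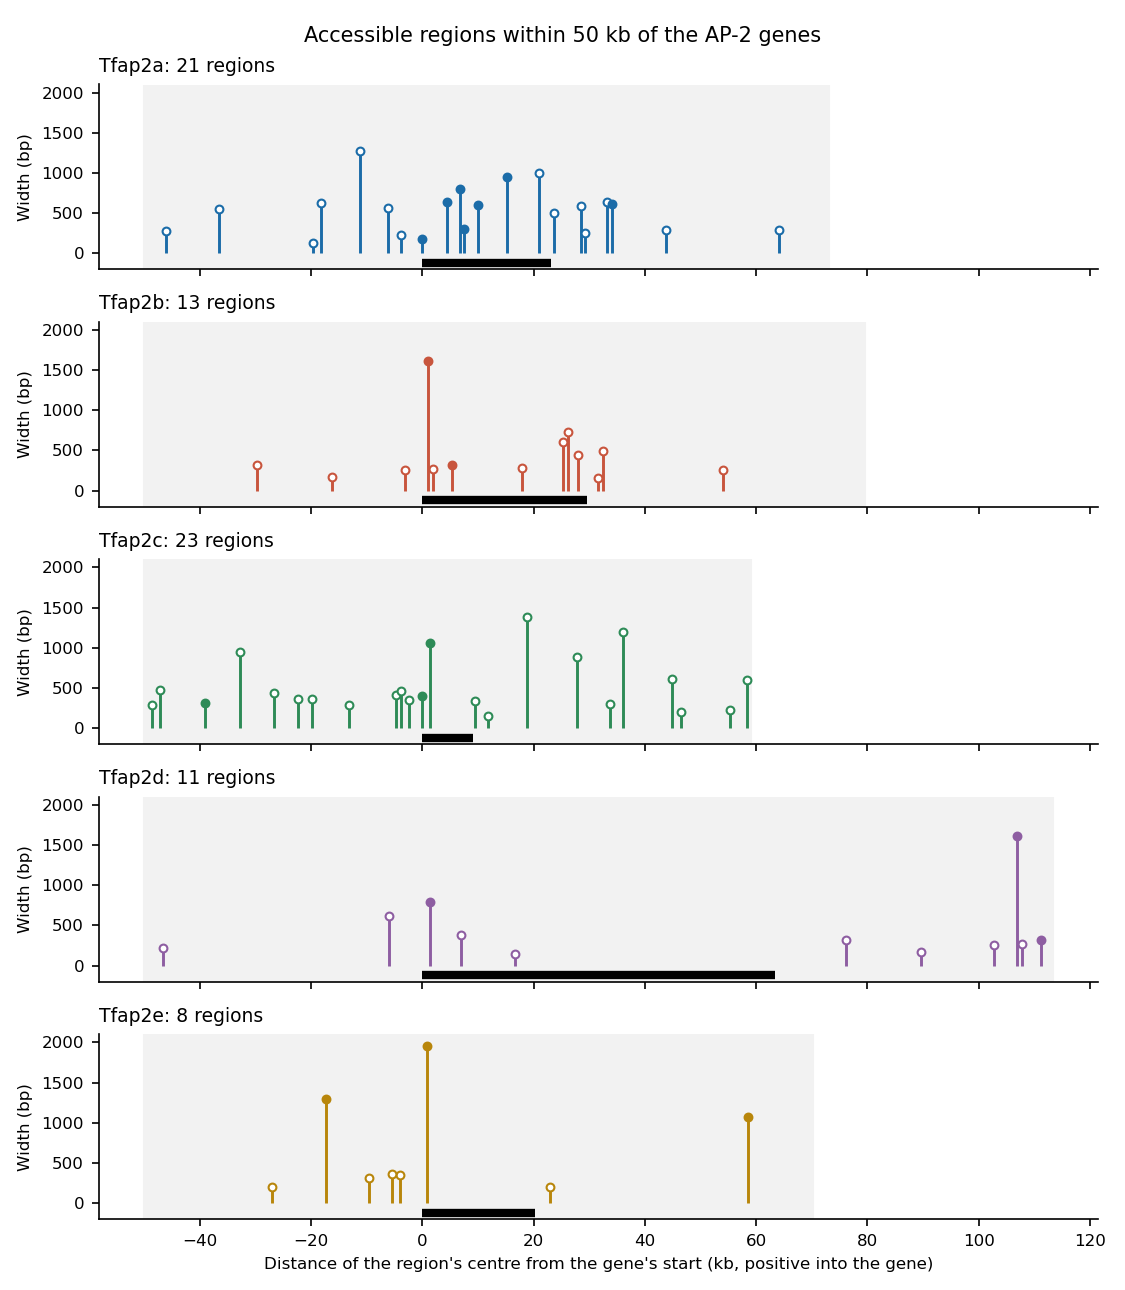
Position (x axis, distance of the region's center from the gene's start in kb, positive in the direction of transcription) and width (y axis, bp) of each region in the windows of the 5 genes. Black bars are gene bodies, grey areas the windows, filled points regions within 1 kb of a TSS and open points distal regions. Tfap2c has distal regions throughout its window, Tfap2d has an empty stretch from 16.7 to 75.9 kb before the 6 regions it shares with Tfap2b, and Tfap2e has a single region, of 1951 bp, over its start.

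Over the 5 genes, 3 gene starts (Tfap2a, Tfap2c and Tfap2e) were covered by a region, beside 61.6% of all protein-coding genes. Of the 23 annotated transcript starts, 11 were covered (47.8%), beside 53.7% of the 101639 transcript starts of protein-coding genes, and 19 of 23 (82.6%) had a region within 1 kb, beside 65.0% of those 101639. The starts without one within 1 kb were both GENCODE starts of Tfap2d and 2 of the 5 of Tfap2b. With 5 genes, 1 gene more or fewer moves the first share by more than it differed from the background. The 23 starts are not independent, as 9 are of Tfap2a and 6 of Tfap2c and 1 region can serve several. Whether the shares of starts differ from the background was not tested.

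The median width was 385.5 bp over the 70 regions and 379 bp over the list (quartiles 223 and 645). By gene, the median was 567 bp at Tfap2a (range 132 to 1273), 396 bp at Tfap2c (148 to 1389), 358.5 bp at Tfap2e (196 to 1951), and 313 bp at both Tfap2b (161 to 1609) and Tfap2d (146 to 1609). All medians except that of Tfap2a lay within 100 bp of the median of the list, and that of Tfap2a lay within its quartiles. That of Tfap2e rests on 8 regions, and without those under 200 bp it was 720 bp. The quartiles of the list include its own regions under 200 bp, 19.4% of it. The 720 bp therefore cannot be read against them. Regions wider than 1 kb were 8 of 70 (11.4%, Wilson interval 5.91 to 21.0%), beside 9.8% of the list: 3 at Tfap2c, 3 at Tfap2e, 1 at Tfap2a and the 1 shared by Tfap2b and Tfap2d. Of these 8, 3 were distal, 1 at Tfap2a and 2 at Tfap2c.

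Distal regions were 54 of 70 (77.1%, Wilson interval 66.0 to 85.4%), beside 82.7% of the list, which lies inside the interval. By the position of their centers, 44 of the 70 were intergenic (62.9%, Wilson interval 51.1 to 73.2%), beside 42.0% of the list. In exons of any gene were 14 (Wilson interval 12.3 to 30.8%), beside 13.7%, and in introns 12 (17.1%, 10.1 to 27.6%), beside 44.3%. These shares differed between the genes and lean on the Tfap2c window. There 1 of 23 regions was centered in the gene body, beside 7 of 13 at Tfap2b, and the only other annotated gene is a pseudogene. The 396 bp region over the Tfap2c start was itself counted as intergenic by its center. Regions of 1 window share their surroundings, and the intervals cover counting error only. Distal regions had a median width of 353.5 bp, beside 344 bp for distal regions of the list, and the 16 promoter-proximal ones of 715.5 bp, beside 757 bp.

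A larger share of these regions than of the list was CpG-rich, unevenly over the genes. A region was called CpG-rich at 200 bp or more with at least 50% GC and an observed-to-expected CpG ratio above 0.6, and 19 of the 70 were (27.1%, Wilson interval 18.1 to 38.5%), beside 8.88% of the list. Among the 19 were regions over the starts of other genes, such as Gm9979 in the Tfap2a window and Ncdn and AU040320 in the Tfap2e window. Tfap2a had 9 of its 21 regions, Tfap2b 4 of 13, Tfap2c 3 of 23 and Tfap2e 2 of 8. The region over exon 2 of Tfap2d was the 1 other of these CpG-rich regions. Most of them were at promoters, where 13 of 16 proximal regions were CpG-rich beside 39.5% of all proximal regions, and 6 of 54 distal regions were (11.1%) beside 2.49% of all distal ones. Inside the gene bodies, 12 of the 18 regions centered there were CpG-rich (66.7%), beside 12.5% of the list's regions centered in protein-coding genes: 5 at Tfap2a, 4 at Tfap2b and 1 at each of the others. Of these 12, 10 lay within 1 kb of an annotated start. Of the 18 regions, 8 were distal, beside 66220 of the 87397 in the list, so the 66.7% and the 12.5% differ in promoter content. Among distal regions in gene bodies, 2 of 8 were CpG-rich, beside 2.56% of those in the list. The median GC content was 52.3% over the 70 regions and 49.2% over the list.

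**Figure D3:**
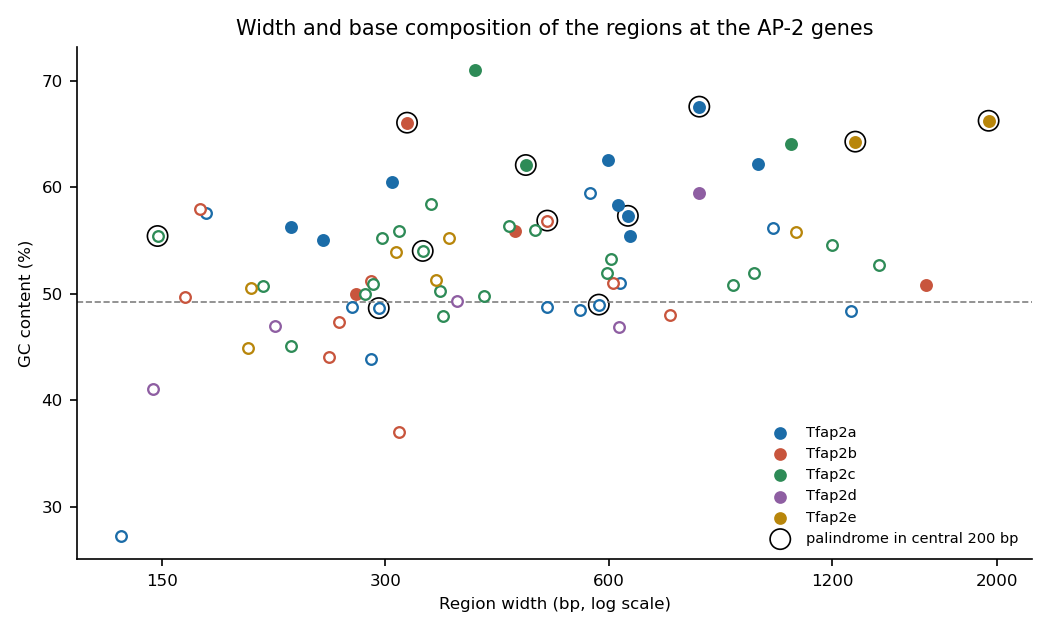
Width (x axis, bp, log scale) against GC content (y axis, percent) for the 70 separate regions, coloured by gene, with shared regions drawn once as Tfap2b. Filled points are CpG-rich, open points are not, rings mark a palindrome in the central 200 bp and the dashed line is the median GC content of all regions in the list (49.2%). Of the 11 ringed points 2, both of Tfap2a, lie just below that line, and the widest point is the Tfap2e start region at 66.2%.

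In the central 200 bp, the share of regions with the palindrome could not be told from that of the list within counting error. The palindrome was there in 11 of 70 (15.7%, Wilson interval 9.01 to 26.0%), beside 9.35% of the list, which lies inside the interval. With 1 mismatch allowed it was in 47 (67.1%), beside 63.6%. The 11 regions were 4 at Tfap2a, 3 at Tfap2c, 2 at Tfap2b, of which Tfap2d shares 1, and 2 at Tfap2e. In 200 bp windows placed 1 kb left and right of the centers, 1 and 3 of the 70 regions had a match, beside 3.67% and 3.74% over the list. Among regions with at least 60% GC in the center, 6 of 18 members held it, beside 26.8% of the list. At 50 to 60% GC it was 4 of 28 beside 9.82%, at 40 to 50% it was 1 of 22 beside 4.80%, and below 40% it was 0 of 2 beside 2.00%. With the list weighted to the GC classes of the members, its share was 12.4%, inside the interval of the members' share. Over whole regions, 25 of 70 (35.7%, Wilson interval 25.5 to 47.4%) held at least 1 match, beside 18.8% of the list, which lies below the interval. There were 33 matches in all, or 0.890 per kb beside 0.567 per kb. The share over whole regions was not weighted to GC classes. A match is a run of letters and does not show that an AP-2 protein binds there.

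Motifs of the factors depleted in these cells were found in single regions around the AP-2 genes. The octamer ATGCAAAT, the element of OCT4 and its relatives, was in the center of 1 of 70 regions, beside 2.01% of the list. The SOX element CATTGTT was in the center of 1 of 70, beside 4.12%. The joint OCT4::SOX2 element (CATTGT, any 1 base, ATGCAAAT, with at most 2 mismatches, which overlaps both others) was in 0 of 70, which allows a share of up to 4.29% by 3 counts in 70 and up to 5.20% by the Wilson interval, both for counting error only, beside 0.571% of the list. The Wilson interval of 1 in 70 runs from 0.253 to 7.66% and holds both backgrounds, so a difference was not detectable with 70 regions. The 2 matches are shown on the plus strand of GRCm38 with the element in capitals, the SOX element as its reverse complement.
Tfap2c +55.2 kb, octamer: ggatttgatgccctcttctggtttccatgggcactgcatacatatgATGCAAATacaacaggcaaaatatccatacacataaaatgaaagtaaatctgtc
Tfap2e -3.98 kb, SOX element: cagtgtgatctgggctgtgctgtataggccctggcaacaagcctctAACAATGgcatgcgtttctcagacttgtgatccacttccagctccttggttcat
They are chr2:172604820-172604919, in an intergenic region of 224 bp (172604716-172604939), and chr4:126740185-126740284, in the 351 bp region before Tfap2e. Repeat-masked sequence made up 64.7% of the 224 bp region and 0% of the 351 bp region, beside a median of 11.9% over the list. Whether either region changed upon OCT4 or SOX2 loss was not analysed here, since the list has no value per condition.

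The counts depended on where the window ended. Just inside and just outside the 50 kb limit, the last regions lay 49.0 and 50.1 kb from the gene body at Tfap2c, 46.0 and 56.0 kb at Tfap2a, 29.6 and 51.5 kb at Tfap2b, 47.7 and 60.4 kb at Tfap2d, and 37.8 and 50.2 kb at Tfap2e. Within 20 kb of the gene bodies, the counts were 17 at Tfap2a, 11 at Tfap2b, 11 at Tfap2c, 6 at Tfap2e and 5 at Tfap2d, so that Tfap2a rather than Tfap2c had the most and Tfap2d rather than Tfap2e the fewest. Within 50 kb of the gene start in place of the gene body, Tfap2d also had the fewest, 5, beside 7 at Tfap2e. Within 100 kb they were 39 at Tfap2c, 31 at Tfap2a, 18 at Tfap2d, 16 at Tfap2b and 16 at Tfap2e.

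Genes that act with AP-2 factors give the scale of these densities. The covered gene starts given for each list stand beside 61.6% of all protein-coding genes. Lists of 5 to 10 genes are too small to tell their counts from that share. Among 10 cofactors and inhibitors, which include the coactivators Ep300 and Crebbp, the CITED proteins that bridge AP-2 to them, and Kctd15, an inhibitor of AP-2 activity, 8 gene starts were covered and the median density was 9.79 regions per 100 kb (range 4.73 to 17.8). Kctd15 was the densest, with 21 regions in its window and 17.8 per 100 kb, and its gene start was not covered. Cited2, a coactivator of TFAP2 proteins in the embryo, had 9 regions and 8.78 per 100 kb. Of the 10, 5 were above the median of all genes, beside 2 of 5 AP-2 genes.

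Among 8 genes known as AP-2 targets, 6 starts were covered and the median density was 12.2 (range 3.64 to 19.7), with 5 above the median of all genes. Cdh1, which encodes E-cadherin, had 31 regions (18.6 per 100 kb) and the receptor gene Erbb3 had 24 (19.7), whereas the estrogen receptor gene Esr1 had 18 in its long window (3.64) and the keratin gene Krt14 had 8 (7.66).

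All 6 trophoblast regulators were above the median of all genes, with a median of 15.9 regions per 100 kb (range 10.8 to 21.8), and 4 of their 6 starts were covered. Gata3 had 29 regions (21.8 per 100 kb), Tead4 31 (17.6), Cdx2 17 (16.0) and Elf5, a gene also counted as an AP-2 target, 15 (10.8). The densities at Tfap2c, 21.1, and Tfap2a, 17.1, lay inside this range, and those at Tfap2b, Tfap2d and Tfap2e below it. Of the 5 ES cell factors, 4 were above the median of all genes and 4 starts were covered, with 27.1 regions per 100 kb at Nanog, 24.8 at Pou5f1, 19.6 at Sox2 and 9.49 at Klf4. Tfap2a, Tfap2b and Tfap2c had densities in the range of the ES cell factors, 9.49 to 27.1. Klf4 alone sets its low end, and the range holds the median of all genes, 10.2, so it is not particular to ES cell factors. The other 4 factors had 18.4 or more, which of the AP-2 genes only Tfap2c exceeded. No test of a difference between lists was made.

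**Figure D4:**
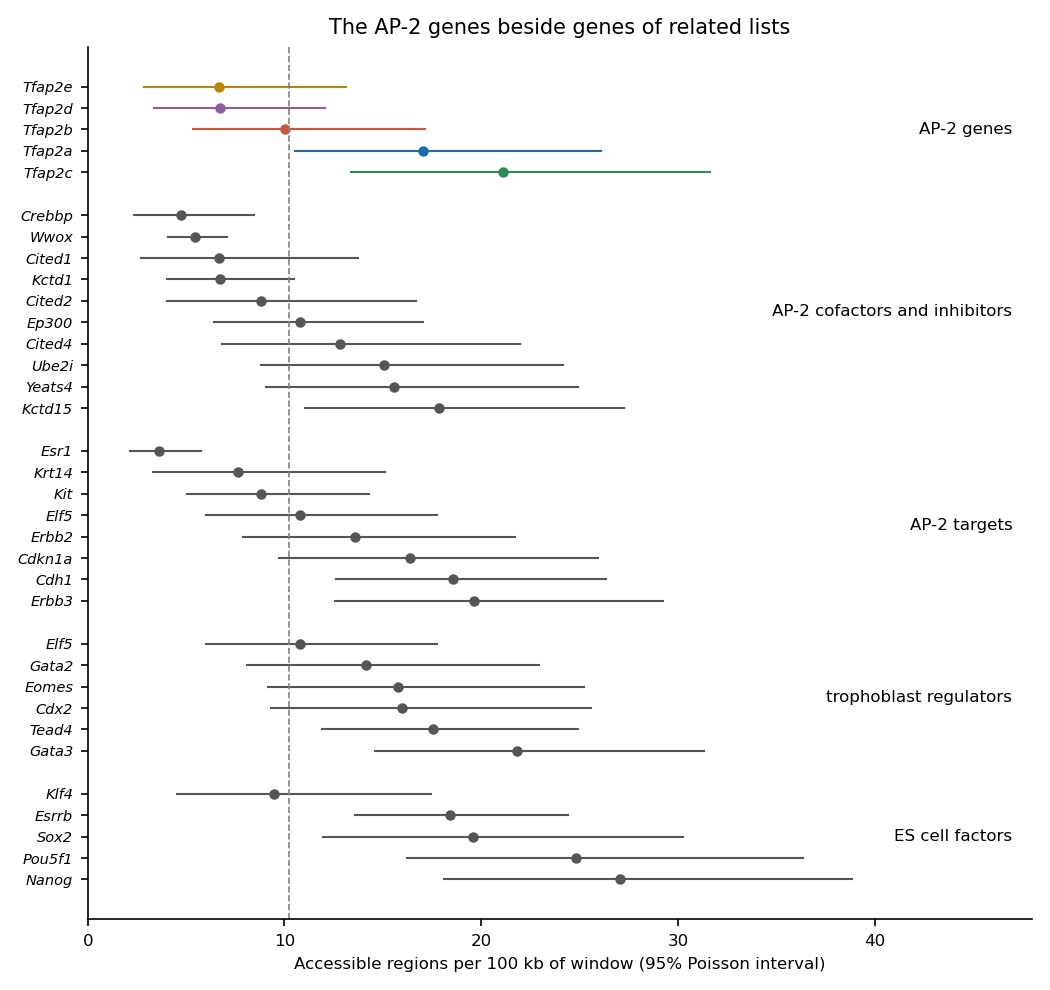
Regions per 100 kb of window (x axis) for each gene of the 5 lists (y axis), as points with 95% Poisson intervals. The dashed line is the median of all protein-coding genes, 10.2, and Elf5 appears in both lists that hold it. The 6 trophoblast regulators and 4 of the 5 ES cell factors lie to the right of the line, as do Tfap2a and Tfap2c, while Tfap2b lies just left of it.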

How the data were processed

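ATAC-seq was performed on 12 libraries in 6 groups of 2. Per the labels and methods, the authors aligned reads to mm10 (GRCm38) with STAR 2.6.1c, removed duplicates with Picard, called peaks with MACS2 2.1.1.20160309 and used BEDTools to merge the peaks from both lines. Whether peaks were called per replicate, and whether published data entered the merge, is not given in the sources used here. The deposited values are other than a measurement of height: they are start and end positions in bp, with 0 columns per sample. Merging can join peaks of different libraries into 1 wider region.

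Regions were counted when they overlapped a gene body or its flanks of 50 kb (GENCODE M21, a later release than that of the authors), and coordinates are counted from 1. Intervals are 95% Wilson or exact Poisson intervals. The functions were tested on simulated data. Named genes are the 5 AP-2 genes, 4 related lists, and neighbours whose TSS a region covers. Named regions are those over or nearest to a TSS, the widest, the farthest and those with a palindrome; regions over exons were added after their positions were seen. The members and lists were chosen with earlier results of these data known. Counting used pandas 2.3.3, NumPy 2.4.6 and SciPy 1.17.1 under Python 3.11.15, and plots matplotlib 3.10.9.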

Additional observations from a re-analysis of the deposited data

How the results depend on the processing

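Of 51 alternative values for 18 results, 15 moved beyond the margin set for them (1.5 times for a count, the 95% interval for a share, rank or median width) and 36 did not. With flanks of 20 kb the count fell to 11 at Tfap2c and 5 at Tfap2d, and with flanks of 100 kb it rose to 39 at Tfap2c, 18 at Tfap2d and 16 at Tfap2e. Counting around the gene start left 5 regions at Tfap2d. Ranked by density in place of number, the percent of genes below was 83.6 (from 76.7) for Tfap2a, 49.0 (from 43.5) for Tfap2b, 94.9 (from 83.0) for Tfap2c, 30.4 (from 35.2) for Tfap2d and 29.9 (from 23.8) for Tfap2e. Each of these ranks counted as moved, but the margin for a rank did not take in the counting error of the gene's own regions. With 1 TSS per gene, 85.7% of regions were distal in place of 77.1%. The share of the list under that rule is not given here, since its 82.7% uses every annotated TSS. The 85.7% therefore cannot be read against the list. Transcript starts with a region within 1 kb made up 82.6%, and starts covered 47.8%. The palindrome share of 15.7% was 35.7% over whole regions, where 18.8% of the list matched. With 1 mismatch allowed it was 67.1%, where 63.6% of the list matched. Among the 36, the median width at Tfap2e without regions under 200 bp was 720 bp in place of 358.5 bp, inside the wide interval of a median of 8 regions. No paired analysis was possible because single libraries have no values in the merged list. For the same reason no replicate could be left out in turn, and with no score a stricter peak threshold could not be applied. The depth of the libraries, and so which further regions could have been called, is unknown.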
